A study of Mus musculus with 15 samples.

Results

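The ATP-binding cassette (ABC) transporter genes of 4T1 cells, a mouse mammary carcinoma line, were described across 5 conditions by bulk RNA sequencing. Members were the rows of the count table whose whole symbol is Abca, Abcb, Abcc, Abcd, Abce, Abcf or Abcg followed by digits and at most 1 letter. The rule found 50 genes of 40402 in the table. The cells were wild type by their labels and were untreated or given 1 of 4 treatments, namely an extract of blackberry (BLA) or of blueberry (BLU) or gold nanoparticles made with the blackberry (BLA-A) or the blueberry (BLU-A) extract. Treatment began 24 h after seeding, all groups share the same line, and the labels give neither the exposure time nor a vehicle control. Each condition carries 3 labelled replicates, which the study drew as subsets of the reads of 1 library, so the 3 columns were averaged and each condition was used as 1 library. No difference between a single treatment and untreated cells therefore has a replicate check, and intervals given below cover counting error only.

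ABC proteins bind and hydrolyse ATP in paired nucleotide-binding domains, and most of them use that energy to move a substrate across a membrane. P-glycoprotein, the multidrug resistance proteins and the breast cancer resistance protein export drugs and conjugated metabolites from tumour cells. ABCA1 and ABCG1 load cholesterol and phospholipid onto lipoproteins and are textbook targets of the liver X receptors. Further members serve mitochondria, peroxisomes and lysosomes, and the ABCE and ABCF proteins lack membrane domains and act in translation.

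Total counts ran from 25613778 to 26956442 per library, and a count of 3, taken as the floor, stood for 0.111 to 0.117 CPM, the count scaled to the size of the library. Of the 50 members 42 were tested, having at least 1 CPM in at least 1 library. All 50 together took 0.158% to 0.169% of the counts of a library. Of the 42, 26 passed in all 5 libraries and 10 passed through a single library, which was the untreated one for Abca8b, Abca14, Abcc6 and Abcc12. The single library was BLA for Abca6 and Abcb9, BLU for Abca5 and Abca8a, and BLU-A for Abcb5 and Abcc8. Each of these 10 genes had to be highest in the library through which it passed, so its direction against that library was fixed by the filter. Of 18 cell type markers, the 6 of mammary carcinoma epithelium summed to 844.6 to 1608 CPM, and the sum was lowest in BLA and highest in BLA-A. Krt7, Krt8 and Krt18 made up most of that sum. Epcam went the other way, lowest in BLA-A at 39.7 CPM against 68.9 in untreated cells, and Krt19 and Cldn4 were not lowest in BLA. The sums were 7.77 to 9.15 CPM for leukocytes, 2.50 to 5.08 for endothelium, 86.3 to 102 for fibroblasts and 0 to 0.679 for adipocytes, with Lum at 0 in every library. Nearly all of the fibroblast sum was Pdgfra. Their part in the results below was not tested. Because RNA of whole cultures was sequenced, fewer cells that express a gene and less of its RNA per cell cannot be told apart.

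Most members lay within a log2 fold change of 1 on the log2(CPM + 0.5) scale, which understates the change of low genes. In all 4 treatments 22 of the 42 tested members, or 52.4%, stayed within that limit, against 64.7% of the 17647 genes tested. Past it, 1 member was higher and 7 were lower in BLA, beside a background over all genes of 7.92% higher and 8.54% lower. In BLU the counts were 1 higher and 2 lower, beside 5.66% and 4.64% of all genes. BLU-A had 4 higher and 4 lower, beside 3.35% and 4.5%, and 2 of the 4 higher, Abcb5 and Abcc8, passed the filter through BLU-A alone. In BLA-A 3 members were higher and 13 lower, or 7.14% and 31% of members, against 8.54% and 12.4% of all genes. The filter fixed the direction of lower members that passed through the untreated library alone. These were Abca8b, Abca14, Abcc6 and Abcc12 in BLA-A, and Abca8b, Abca14 and Abcc6 in BLA. In BLU they were Abca8b and Abcc12, and in BLU-A Abca8b and Abca14. Abcb9, the member higher in BLA, passed through BLA alone.

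**Figure D1:**
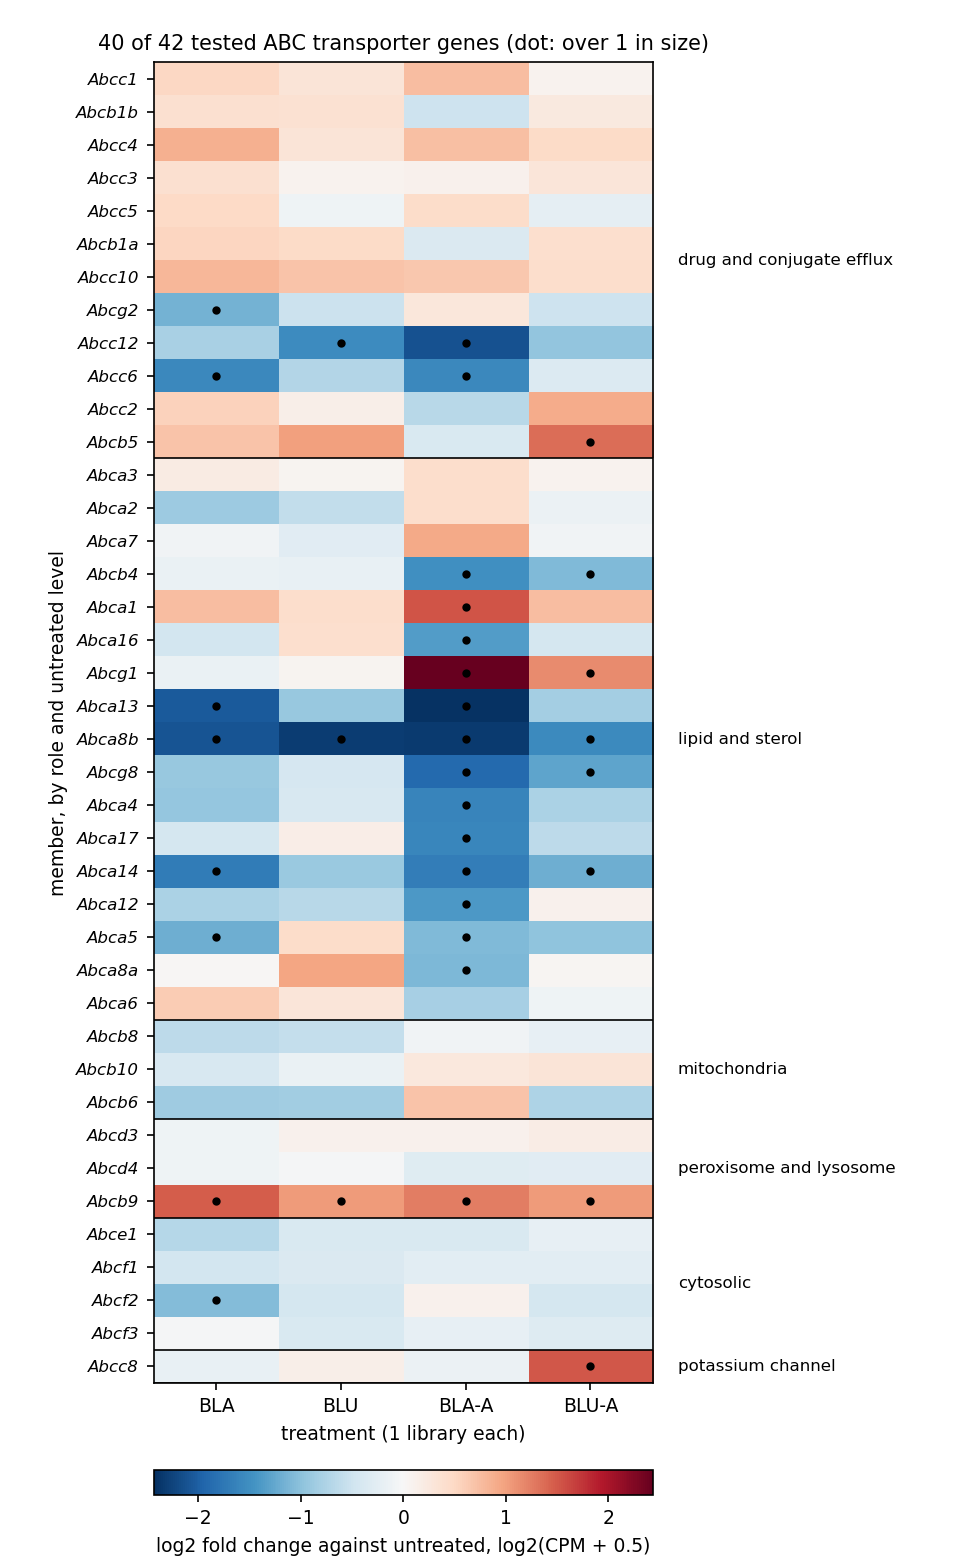
Log2 fold change of 40 of the 42 tested members (rows, by role and by level in untreated cells) against untreated cells in the 4 treatments (columns, 1 library each), blue for lower and red for higher, with a dot where the size is over 1. Dots gather in the BLA-A column among lipid and sterol members, where 11 of 17 were lower and 2 were higher, and the mitochondrial rows carry none. All of those 11 had a mean under 10 CPM, and of them only Abca16 and Abcb4 reached 1 CPM in BLA-A.

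The members past the limit were mostly weakly expressed. Of 21 members with a mean over 10 CPM, none was lower and only Abca1 was higher than the limit in BLA-A, where 4.72% and 7.86% of all genes of that level were. Among 13 members with a mean under 1 CPM, 8 were lower in BLA-A, against 34% of the 2489 genes of that level. Abca8b, Abca14, Abcc6 and Abcc12, whose direction the filter fixed, are among these 8. Between 1 and 10 CPM the same held for 5 of 8 members, against 16.3% of 5393 genes. The rank correlation of a member's log2 fold change with its level was 0.511 for BLA-A, 0.272 for BLA, 0.197 for BLU-A and 0.0341 for BLU over the same 42 genes, whose points share libraries and depth. The scaling factor of the BLA-A library, by trimmed mean of M values, was also the lowest of the 5 at 0.905, and without that factor the median of all genes in BLA-A against untreated moved from -0.01 to -0.18.

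**Figure D2:**
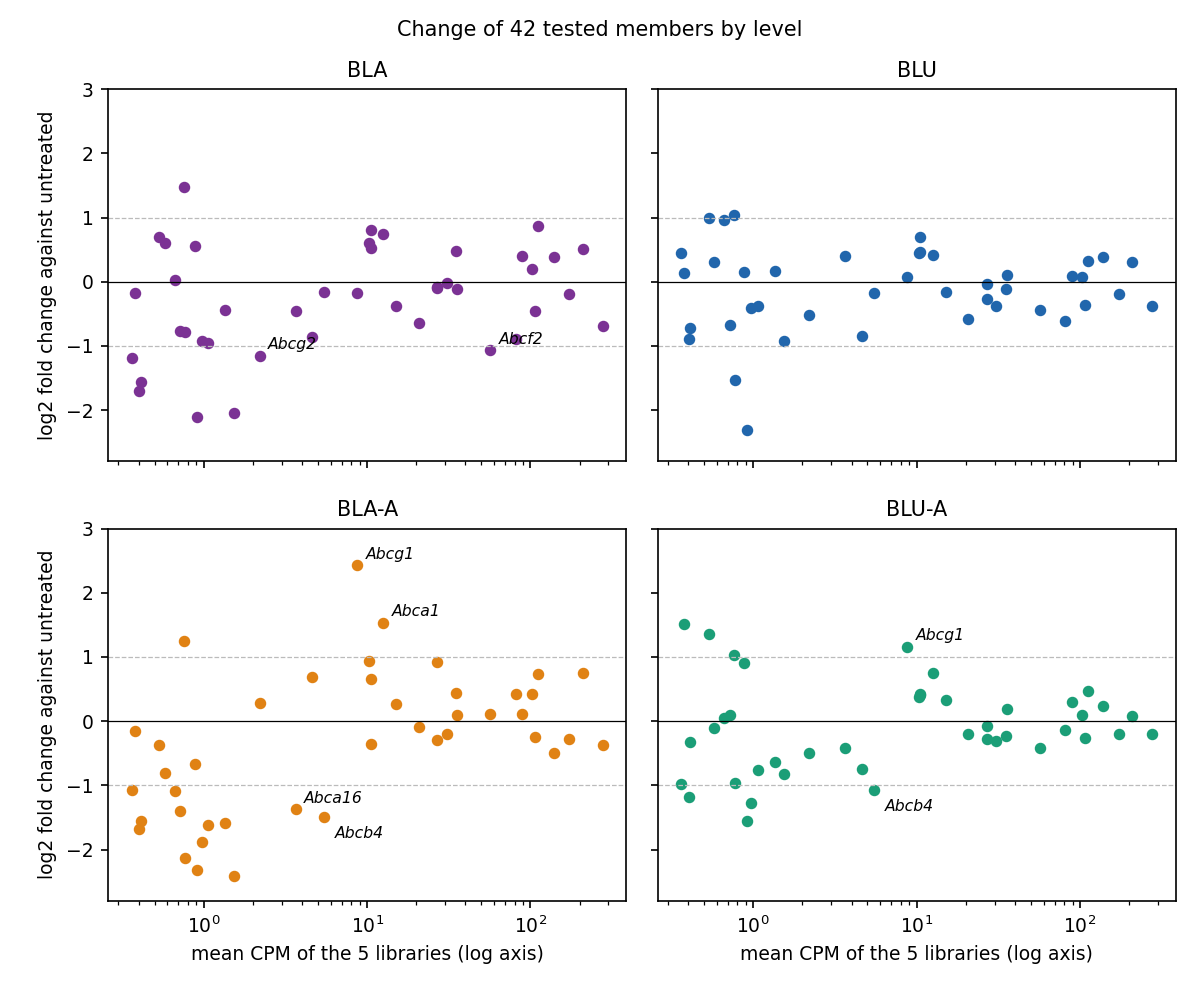
Log2 fold change against untreated cells (vertical) over the mean CPM of the 5 libraries (horizontal, log axis) for the 42 tested members in each treatment, with dashed lines at 1 in size and names for genes past them with a mean over 2 CPM. The points past the dashed lines sit mostly at low levels, and Abca1 and Abcg1 are the named points above the line.

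Across treatments, 8 members were above 0 in all 4 and 14 were below 0 in all 4, or 19% and 33.3%, beside 19.4% and 19.3% of all genes. The 14 include Abca8b, Abca14, Abcc6 and Abcc12, whose place below 0 was fixed by passing the filter through the untreated library alone. Abcb9 alone was over the limit upward in all 4, or 2.38% of members beside 0.306% of all genes, and it passed the filter through BLA alone. Abca8b alone was over it downward in all 4, or 2.38% beside 1.35%, and it passed through the untreated library alone. The 4 treatments share the untreated library, so a high or low untreated value moves all of them together.

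A quasi-likelihood test in edgeR of the 4 treated libraries against the untreated library called no member at an adjusted p of 0.05, where it called 4 of 17647 genes (0.0227%). Unadjusted p-values fell under 0.05 for 1 of the 42 members, Abca8b, beside 2.73% of all genes. The test of both nanoparticle libraries against both extract libraries called 0 genes (0.0%), and 3 members (Abcg1, Abca2 and Abcb4) had an unadjusted p under 0.05, beside 6.0% of all genes. DESeq2 called no member in either comparison, while it called 17 and 36 genes in the whole table.

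Expressed per kb of annotated exon, a scale on which members can be set side by side, the highest member in untreated cells was Abce1 at 54.8 CPM per kb, the recycling factor that splits ribosomes after termination. Abcf1 followed at 27.1 CPM per kb, and Abcc3 stood at 13.1 and Abcf2 at 12.5. Abce1 and Abcf1 held ranks 1 and 2 in every library, and also per kb of gene span. Abcc3 ranked 4 by exon length in untreated cells but 8 by gene span, and since reads in introns were counted too, ranks below the first pair depend on which length is used. Among drug pumps Abcc1 stood at 10.5, Abcc4 at 9.09, Abcb1b at 5.96, Abcb1a at 1.43 and Abcg2 at 0.296 CPM per kb of exon.

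Drug and conjugate efflux pumps had summed levels of 499.9 CPM in untreated cells, 715.8 with BLA, 604.2 with BLU, 643.1 with BLA-A and 580.4 with BLU-A, so the sum over these 13 genes was 1.16 to 1.43 times the untreated sum. The median log2 fold change of the 12 tested was 0.49 with BLA, 0.23 with BLU, -0.12 with BLA-A and 0.27 with BLU-A. No pump expressed over 3 CPM in untreated cells passed a log2 fold change of 1 in any treatment.

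Abcb1a and Abcb1b encode the mouse P-glycoproteins, broad exporters of hydrophobic drugs, and are neighbours on the plus strand of chromosome 5 (GRCm39, chr5:8710022-8798575 and chr5:8847994-8916389). Their transcripts are so alike that counting can be affected: 16.8% of all 50-base windows of the Abcb1a transcript and 17.2% of those of Abcb1b occur in another member. The longest run that both share is 338 coding bases. The 300 bases of it printed here, from exons 13 and 14 of each gene, hold the codons of the ABC signature motif, the stretch by which nucleotide-binding domains of this family are recognised. Capitals mark those 15 bases, at chr5:8752829-8752843 in Abcb1a and chr5:8875149-8875163 in Abcb1b, both in exon 14, and reads that fall inside such a run cannot be told apart.
Abcb1a and Abcb1b: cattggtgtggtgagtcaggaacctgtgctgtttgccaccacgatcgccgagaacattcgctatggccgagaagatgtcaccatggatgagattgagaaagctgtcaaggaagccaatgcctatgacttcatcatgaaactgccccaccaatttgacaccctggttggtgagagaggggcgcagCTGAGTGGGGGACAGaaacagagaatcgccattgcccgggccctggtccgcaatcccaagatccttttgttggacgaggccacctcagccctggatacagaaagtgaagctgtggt

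Abcb1b had 126 CPM in untreated cells, 165 with BLA, 164 with BLU, 89.2 with BLA-A and 149 with BLU-A. For Abcb1a the levels in the same order were 8.82, 12.9, 12.3, 6.77 and 11.8 CPM. Both P-glycoprotein genes were thus lowest in BLA-A and higher than untreated in the other 3 treatments. The BLA-A level was 0.707 times the untreated level for Abcb1b (95% counting interval 0.669 to 0.747) and 0.768 times for Abcb1a (0.624 to 0.944). Against BLA, the ratios in BLA-A were 0.542 (0.514 to 0.571) and 0.524 (0.431 to 0.634). Counts of Abcb1b per count of Abcb1a stayed between 12.6 and 14.3 in the 5 libraries.

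**Figure D3:**
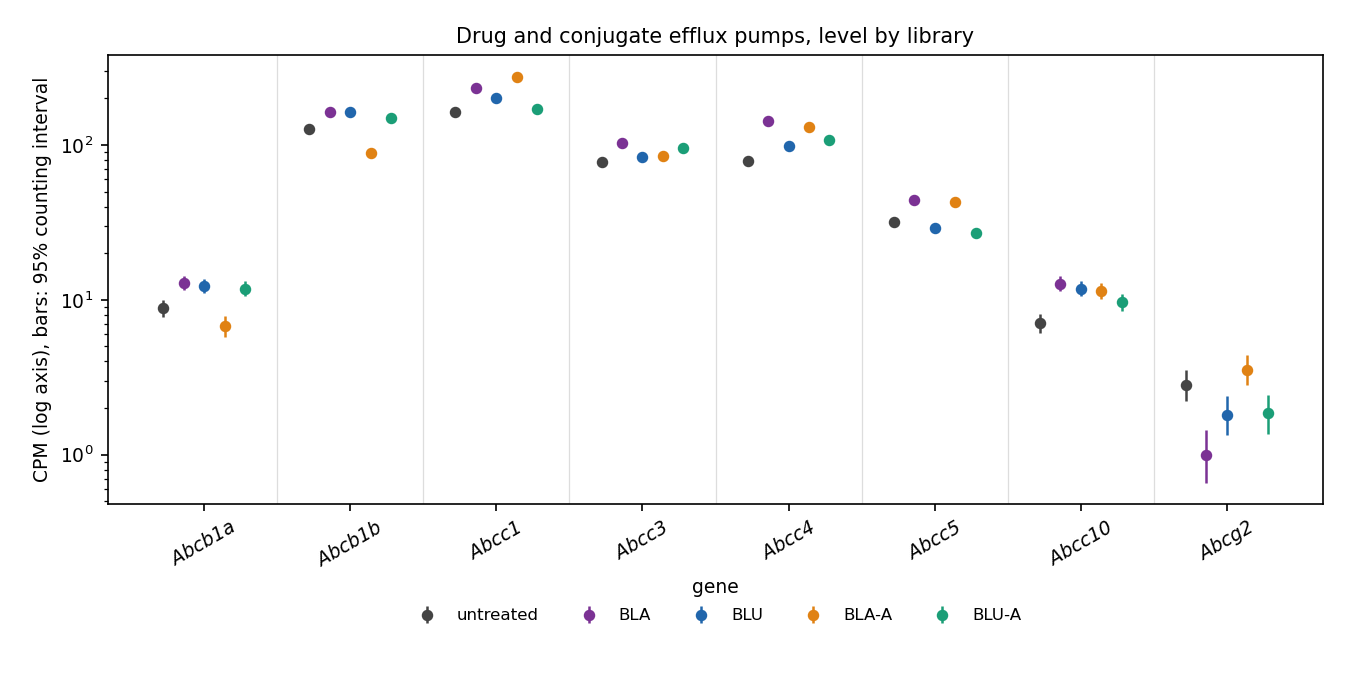
Level of 8 drug and conjugate efflux genes in CPM (vertical, log axis) in each of the 5 libraries (colours), with bars for the 95% counting interval, which is shorter than the point for high genes. Abcb1a and Abcb1b have their lowest point in BLA-A, Abcc1 its highest, and Abcg2 its lowest in BLA.

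Abcc1, the multidrug resistance protein that exports glutathione conjugates, had 163 CPM in untreated cells, 232 with BLA, 201 with BLU, 274 with BLA-A and 172 with BLU-A. It was highest in BLA-A, at 1.68 times untreated (1.62 to 1.75), the reverse of the P-glycoprotein genes there. Abcc4, an exporter of cyclic nucleotides and of drug metabolites, had 78.5, 143, 97.8, 131 and 108 CPM in the same order. Its 4 treated libraries were all higher than the untreated one, by 1.25 to 1.82 times. Abcc10 was likewise higher in all 4, by 1.36 to 1.81 times, from 7.05 CPM in untreated cells. Abcc3, which exports glucuronide conjugates, had 77.9, 103, 83.1, 84.3 and 96.0 CPM, and its small difference between BLA-A and untreated cells turns sign when scaled by total counts. Abcc5 lay between 26.9 CPM in BLU-A and 44.3 in BLA. Each pump of this paragraph had an adjusted p of 0.999 in the edgeR quasi-likelihood test of treated against untreated cells.

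Abcg2, the breast cancer resistance protein, was weakly expressed, with 75 counts in untreated cells, 27 with BLA, 50 with BLU, 82 with BLA-A and 49 with BLU-A. It was lower in BLA by a log2 fold change of -1.15, a CPM ratio of 0.352 (0.218 to 0.553). In BLA-A it was 3.57 times the BLA level (2.29 to 5.74), whereas BLU-A and BLU differed by a ratio of 1.02 (0.673 to 1.54). The remaining pumps past the limit had 50 counts or fewer in every library. Abcc12 had 50 counts in untreated cells against 24 with BLA, 9 with BLU, 1 with BLA-A and 19 with BLU-A. Abcc6 had 26, 0, 11, 0 and 18 counts in that order. With the floor of 3 counts in place of 0, it was 8.86-fold below untreated in BLA and 7.54-fold in BLA-A. The counting intervals start lower, at 6.7-fold in BLA and 5.71-fold in BLA-A. Abcb5 had 4, 15, 22, 0 and 31 counts, with a log2 fold change of 1.36 in BLU-A, the library through which alone it passed the filter. Abcc2, which exports bilirubin and drug conjugates in liver, had 17, 32, 21, 5 and 43 counts. BLA-A held the lowest count of each of these 4 genes, shared with BLA for Abcc6, and the share of all genes lowest there is not given here. Abcg3, the pump that was not tested, had 9, 4, 4, 1 and 17 counts.

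Lipid and sterol transporters were the group with most members past the limit. Of 17 tested, 4 were lower with BLA, 1 with BLU, 11 with BLA-A and 4 with BLU-A, while 2 were higher in BLA-A and 1 in BLU-A. Abca8b and Abca14, among the lower ones, passed the filter through the untreated library alone, which fixed their direction. Of the 11 lower in BLA-A, only Abca16 and Abcb4 reached 1 CPM in that library. Abca4, Abca12, Abca13, Abca17 and Abcg8 passed through the untreated library and others, but not through BLA-A. Abca5 and Abca8a passed through BLU alone. Over all genes the shares were 8.54%, 4.64%, 12.4% and 4.5% lower, and 8.54% higher in BLA-A and 3.35% in BLU-A. Those shares cover genes of every level, whereas all of the 11 had a mean under 10 CPM. In BLA-A 34% of genes with a mean under 1 CPM were lower, and 16.3% of those between 1 and 10 CPM. The median log2 fold change of the 17 was -0.46, -0.18, -1.37 and -0.42 under BLA, BLU, BLA-A, then BLU-A, where the medians of all genes were -0.01, -0.01, -0.01 and 0.00. The summed level was highest in BLA-A, at 342.3 CPM against 249.9 in untreated cells, and Abca2, Abca3 and Abca7 made up most of it.

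Abcg1, which exports cholesterol to high-density lipoprotein, had 103 counts in untreated cells, 92 with BLA, 113 with BLU, 535 with BLA-A and 245 with BLU-A. In CPM these were 3.86, 3.38, 4.10, 23.1 and 9.24. Both nanoparticle libraries lay above the other 3. BLA-A was 5.97 times untreated (4.83 to 7.45) and 6.83 times BLA (5.47 to 8.62), and BLU-A was 2.39 times untreated (1.89 to 3.04) and 2.25 times BLU (1.80 to 2.84). In the edgeR test of nanoparticles against extracts the log2 fold change was 2.11 ± 0.52 (SE, 2 libraries against 2), with an unadjusted p of 0.0045 and an adjusted p of 0.702. Higher levels in nanoparticles were seen in both of 2 berries. The DESeq2 Wald test of the same contrast gave an adjusted p of 0.0523.

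Abca1, which exports cholesterol and phospholipid to apolipoprotein A-I, had 190 counts in untreated cells, 334 with BLA, 268 with BLU, 501 with BLA-A and 325 with BLU-A. All 4 treated libraries were higher than the untreated one, and BLA-A was the highest. Its CPM there was 3.03 times untreated (2.56 to 3.60), against 1.72 times for BLA, 1.36 for BLU and 1.72 for BLU-A. The edgeR test of treated against untreated gave a log2 fold change of 0.97 ± 0.52 (SE, 4 libraries against 1), an unadjusted p of 0.102 and an adjusted p of 0.999.

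Because Abca1 and Abcg1 were the members with over 100 counts that passed the limit upward, the bases before the start of their canonical transcripts are shown. The Abca1 window is chr4:53159901-53160150 on the minus strand and the Abcg1 window is chr17:31276411-31276648 on the plus strand, both of GRCm39 and both ending before any annotated exon. Capitals mark, on either strand, the GC box GGGCGG, the dioxin response core GCGTG, the antioxidant response core TGACNNNGC and the nuclear receptor hexamer AGGTCA.
Abca1: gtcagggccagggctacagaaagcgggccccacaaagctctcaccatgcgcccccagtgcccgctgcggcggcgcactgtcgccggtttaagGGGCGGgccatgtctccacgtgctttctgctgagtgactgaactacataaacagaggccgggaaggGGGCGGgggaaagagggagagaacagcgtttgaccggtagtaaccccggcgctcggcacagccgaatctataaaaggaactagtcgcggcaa
Abcg1: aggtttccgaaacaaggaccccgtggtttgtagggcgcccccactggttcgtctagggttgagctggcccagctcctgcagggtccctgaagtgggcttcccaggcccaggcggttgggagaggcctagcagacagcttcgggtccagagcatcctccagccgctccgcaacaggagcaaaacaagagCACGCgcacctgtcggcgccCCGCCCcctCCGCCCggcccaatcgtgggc
Abca1 holds 2 GC boxes, and Abcg1 holds 2 GC boxes and 1 dioxin response core. Neither window holds the other letters searched. Only exact copies were searched, so sites that differ from these letters were not looked for, and absence of a receptor site cannot be read from this.
Over the 250 bases before the start of all 50 members, GCGTG was present in 28% against 31.2% of 21751 promoters, TGACNNNGC in 6% against 9.68%, GGGCGG in 34% against 36.3% and AGGTCA in 16% against 13.1%. Among the 20 members past the limit in at least 1 treatment, the shares were 15%, 0%, 45% and 10%. The motifs did not overlap each other in the windows printed, and AGGTCA was added after values of these genes had been seen.

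The other abundant lipid transporters stayed within the limit against untreated cells. Abca2, a lysosomal and endosomal lipid transporter best known from brain, had 91.3 CPM in untreated cells, 49.2 with BLA, 59.8 with BLU, 123 with BLA-A and 83.1 with BLU-A. It was lower in both extracts than in both nanoparticle libraries, which do not overlap, and the edgeR test of nanoparticles against extracts gave a log2 fold change of 0.92 ± 0.27 (SE), an unadjusted p of 0.0119 and an adjusted p of 0.702. Abca7, which also moves phospholipid and cholesterol, had 24.0, 22.6, 19.7, 45.8 and 22.7 CPM and stood apart in BLA-A alone, at 2.03 times BLA (1.83 to 2.24). Abca3, the phosphatidylcholine transporter of lamellar bodies, ranged from 91.6 CPM in untreated cells to 123 in BLA-A.

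**Figure D4:**
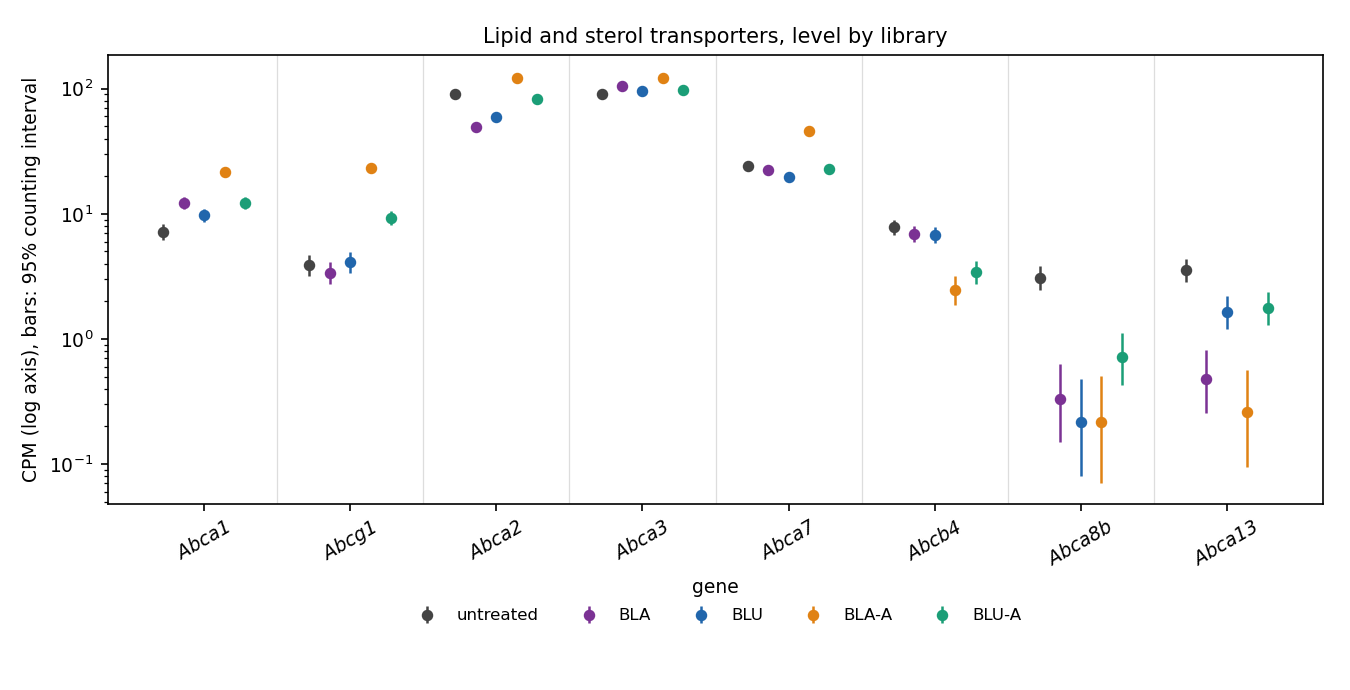
Level of 8 lipid and sterol transporter genes in CPM (vertical, log axis) in each of the 5 libraries (colours), with bars for the 95% counting interval. Abcg1 is higher in BLA-A and BLU-A than in the other 3 libraries, Abcb4 is lower in them, and Abca8b is highest in untreated cells.

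Abcb4, the phosphatidylcholine floppase that liver cells use for bile, had 7.80 CPM in untreated cells, 6.90 with BLA, 6.82 with BLU, 2.46 with BLA-A and 3.43 with BLU-A. Both nanoparticle libraries lay under the other 3, where for Abcg1 they lay above them. BLA-A was 3.17-fold lower than untreated (2.36 to 4.33) and BLU-A 2.27-fold lower (1.77 to 2.94). In the edgeR test of nanoparticles against extracts the log2 fold change was -1.22 ± 0.44 (SE), with an unadjusted p of 0.0285 and an adjusted p of 0.702. Abcb4 overlaps the gene Crot, and 3.04% of its 50-base windows occur in another member.

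Abca8b, a member of the ABCA6-like cluster on chromosome 11, had 82 counts in untreated cells, 9 with BLA, 6 with BLU, 5 with BLA-A and 19 with BLU-A. All 4 treated libraries were below the untreated one, the nearest being BLU-A at 4.29-fold lower (2.58 to 7.49). The edgeR test of treated against untreated gave a log2 fold change of -3.04 ± 0.995 (SE), an unadjusted p of 0.0171 and an adjusted p of 0.999. It rests on the count of the single untreated library, which was also the library through which the gene passed the filter.

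Most further members of the group had their lowest count in BLA-A. The share of all genes that were lowest in that library is not given here, so this cannot be set against it. Weak genes as a whole were often lower there, past the limit for 34% of those with a mean under 1 CPM. Abca13 had 94 counts in untreated cells, 13 with BLA, 45 with BLU, 6 with BLA-A and 47 with BLU-A. Abca16 had 119, 85, 167, 33 and 85 counts, Abca17 had 51, 35, 61, 7 and 28, and Abca4, the retinoid flippase of photoreceptors, had 52, 21, 38, 7 and 25. The blackberry nanoparticle library was the lowest of the 5 for each of these 4 genes. The same library was lowest for Abcg8, the partner of Abcg5 in sterol export, with 53, 22, 38, 4 and 14 counts. Abca12, the keratinocyte glucosylceramide transporter, had 31, 13, 15, 3 and 34 counts. Abca8a had 15, 16, 43, 0 and 16 counts. With the floor of 3 counts in place of 0, BLA-A was 4.35-fold below untreated, and the counting interval starts at 3.12-fold. Abca6 had 14, 29, 21, 2 and 12 counts and Abca14 had 33, 1, 12, 1 and 7, as low in BLA as in BLA-A. Abca5, lowest in BLA, had 17, 0, 29, 1 and 2 counts. Its log2 fold change of -1.43 in BLU-A against BLU was set in direction by the filter, which it passed through BLU alone. Of the 5 members of this group that were not tested, Abca15 had 20 counts in untreated cells and 0 or 1 in every treatment, and Abca9, Abcb11, Abcg4 and Abcg5 had 21 counts or fewer in every library.

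The sterol pathway around Abca1 and Abcg1 was followed through 13 genes, all of them tested. In BLA-A 4 were higher and 1 was lower, beside 8.54% and 12.4% of all genes, with a median log2 fold change of 0.61, and none passed the limit in BLA, BLU or BLU-A, where the medians were -0.27, -0.17 and -0.11. Srebf1, a master regulator of lipid synthesis, had 73.6 CPM in untreated cells, 73.0 with BLA, 65.6 with BLU, 254 with BLA-A and 78.3 with BLU-A. Srebf2, which drives sterol synthesis, had 424 CPM in BLA-A against 149 to 179 in the other 4 libraries. Npc1, the lysosomal cholesterol exporter, had 62.5 CPM in BLA-A against 20.8 to 29.9, and Lpcat3, which remodels phospholipids, 87.9 against 24.9 to 32.5. Apoe was the lower gene, with 4.01 CPM in untreated cells and 1.47 in BLA-A. These 4 higher genes stood apart in BLA-A only, whereas Abcg1 was also higher in BLU-A, and the receptors themselves, Nr1h2 and Nr1h3, had log2 fold changes of -0.17 and -0.28 in BLA-A.

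Mitochondrial members stayed within the limit against untreated cells in every treatment. Abcb8 was lowest in the extracts, at 16.0 CPM in BLA and 16.8 in BLU against 25.3 in untreated cells. Abcb10, which supports haem synthesis, had 14.8 CPM in untreated cells, 11.2 with BLA, 13.2 with BLU, 17.8 with BLA-A and 18.6 with BLU-A. Abcb6, a porphyrin transporter, had 5.40, 2.75, 2.79, 9.02 and 3.02 CPM in that order. BLA-A was the highest library for Abcb6, at 3.27 times BLA (2.50 to 4.32), and the other 3 treatments were lower than untreated. Abcb6 overlaps Zfand2b, as Abce1 overlaps Anapc10 and Abcf2 overlaps Chpf2, and counting was stated to use strand. Of 12 haem and iron-sulfur genes, Iscu was lower in BLA, Alad was higher in BLA-A, at 47.1 CPM against 15.0 in untreated cells, and none passed in BLU or BLU-A. Over all genes 8.54% were lower in BLA and 8.54% were higher in BLA-A.

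The tested ABCD members, most of which carry fatty acyl-CoA into the peroxisome, stayed within the limit. Abcd3 lay between 31.5 and 38.8 CPM and Abcd4, the lysosomal cobalamin transporter, between 23.9 and 29.6 over the 5 libraries. Abcd2 had 0 counts in untreated cells, BLA and BLA-A, 14 in BLU and 4 in BLU-A, and was not tested. Abcb9, a lysosomal peptide transporter, had 3 counts in untreated cells, 33 with BLA, 21 with BLU, 22 with BLA-A and 20 with BLU-A. Its untreated library was at the floor, so the ratios of 6.70 to 10.8 have wide counting intervals, from 1.99 at the lowest to 54.8 at the highest. Of the 8 tested genes of a peroxisome list of 9, Pex16 was higher in BLU, BLA-A and BLU-A, beside 5.66%, 8.54% and 3.35% of all genes. In BLA it was just under the limit at 0.97. All of its values rest on 32 counts in the untreated library.

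Cytosolic members were lower than untreated in 15 of 16 values, the exception being Abcf2 in BLA-A, which turns to lower when scaled by total counts. The 16 values are 4 genes in 4 treatments that share the untreated library, so they are not independent. Abce1, Abcf1 and Abcf3 were below 0 in all 4 treatments, as were 19.3% of all genes. Abce1 had 344 CPM in untreated cells, 213 with BLA, 265 with BLU, 267 with BLA-A and 298 with BLU-A. Its level in BLA was 0.619 times untreated (0.599 to 0.640), and it made up 21% of all member counts in untreated cells and 13.6% in BLA. Abcf1, which takes part in translation initiation, had 127, 92.8, 99.5, 107 and 107 CPM. Abcf2 had 70.1, 33.3, 51.7, 75.8 and 52.3 CPM and was the only member over 10 CPM lower than the limit in BLA, at a log2 fold change of -1.06. Abcf3, of the same family, lay between 26.6 and 34.7 CPM. The summed cytosolic level was 0.648, 0.768, 0.833 and 0.842 times untreated under BLA, BLU, BLA-A, then BLU-A, but the log2 fold change of Abce1, -0.40 ± 0.25 (SE), had an adjusted p of 0.999 in the edgeR test of treated against untreated cells. Of 7 tested genes of ribosome recycling and the GCN2 pathway, none passed the limit in any treatment.

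The sulfonylurea receptor gene Abcc8, a regulator of potassium channels, had 4 counts in untreated cells, 2 with BLA, 6 with BLU, 2 with BLA-A and 36 with BLU-A. Its related gene Abcc9 had 11, 0, 0, 0 and 17 counts and was not tested. Abcc8 passed the filter through BLU-A alone, so that its highest count lay there was fixed.

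Nanoparticles were set against the extract of the same berry. In BLA-A against BLA 6 members were higher and 7 lower, or 14.3% and 16.7%, beside 11.5% and 12.9% of all genes. Scaled by total counts the split was 5 higher and 11 lower. In BLU-A against BLU 2 were higher and 1 lower, beside 2.87% and 3.89% of all genes. The filter fixed the direction of Abcc8 (higher) and Abca5 (lower) in the blueberry comparison and of Abca6 (lower) in the blackberry comparison. Abcg1 was the only member past the limit in the same direction in both, at 2.60 and 1.08 on the log2 scale. The share of all genes that do so is not given here, so this cannot be set against it. Higher in BLA-A than in BLA were also Abcb6 (1.55), Abcg2 (1.44), Abca2 (1.31), Abcf2 (1.17) and Abca7 (1.00), of which Abca2 alone had a log2 fold change over 0.3 in BLU-A against BLU. Lower were Abca6, Abcc12, Abcb4, Abcc2, Abca17, Abca8a and Abcb5. The 2 comparisons share no library.

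**Figure D5:**
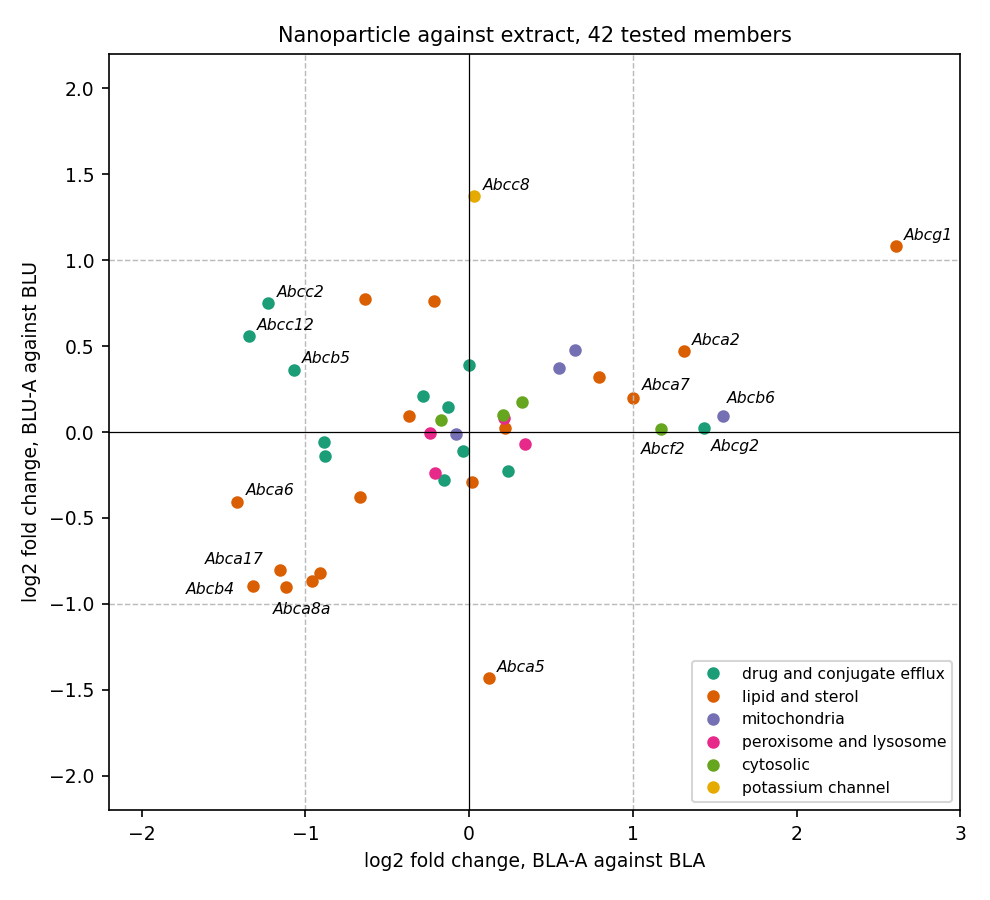
Log2 fold change of the 42 tested members in nanoparticle against extract for blackberry (horizontal) and blueberry (vertical), coloured by role, with dashed lines at 1 in size and names for members past them. Abcg1 is the point in the upper right corner beyond both lines, and no member lies beyond both lines elsewhere.

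Genes around the pumps were described by 3 further lists, whose calls stand beside the same shares of all genes per treatment as the members' calls. Of 14 tested genes of xenobiotic sensing and conjugation, Nr1i2 and Nr1i3 were lower in BLA and Nr1i2 in BLA-A, and none was higher in any treatment. Ahr, the aryl hydrocarbon receptor, had 49.4 to 68.9 CPM in the 5 libraries, and Cyp1a1, its classical target, had at most 0.0863 CPM. A mixed list of other transport genes, not all of them exporters, had 10 tested. Of these, Slco4a1, an organic anion transporter, had 175 CPM in BLA-A against 17.3 to 21.2 in the other 4 libraries. Atp7b was also higher in BLA-A, Slc22a5 was higher in BLA, Slco3a1 was lower in BLA and BLA-A, and Atp8b1 was lower in all 4 treatments. The antigen peptide transporters Tap1 and Tap2, ABC genes under other symbols, lay between 5.89 and 7.85 CPM and between 12.3 and 18.2 CPM, and the third gene of that list, Cftr, was not tested.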

How the data were processed

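RNA of 4T1 cultures was sequenced in 5 conditions with 3 labelled replicates each. To make the deposited counts, the authors removed ribosomal reads, aligned the rest with STAR to RefSeq GRCm39 and counted reads over whole genes, introns included, by forward strand in OmicsBox. The deposited tables of fold changes, p-values and enriched terms were not used. Replicates of a condition varied less than separate draws would (chi-square per degree of freedom 0.0951 to 0.475, limit 1.5) and were averaged, rounded and counted as 1 library.

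Counts were scaled by TMM in edgeR 4.0.16 (R 4.3.3). A gene was tested where 1 or more of the libraries reached 1 CPM. A gene was called higher or lower past a log2 fold change of 1 on log2(CPM + 0.5), with no test for 1 library against 1. edgeR's quasi-likelihood test, with Benjamini-Hochberg adjustment over 17647 genes and a threshold of 0.05, compared the 4 treated libraries with the untreated one, and nanoparticles with extracts. The spread in the first comparison was the difference between unlike treatments, and in the second that between berries, so neither was replicate error. A gene that was not called may therefore still differ. DESeq2 1.42.0 was an alternative. The labels give every sample a batch of its own, so batch and condition cannot be told apart. Intervals are 95%. Fits were tested on simulated data. Python 3.11.15, pandas 2.3.3 and scipy 1.17.1 were used. Sequences, exons and positions came from GENCODE M39 on GRCm39, and no protein sequences were used here.

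Named with values were 6 members of efflux and sterol export (Abcb1a, Abcb1b, Abcc1, Abcg2, Abca1, Abcg1), members past the limit in a treatment or between nanoparticle and extract, the 5 highest per kb of exon, and those with an unadjusted p under 0.05. A few items that these rules name are not reported here. Members and lists were chosen with earlier results of these data known. Other scalings, filters, pseudocounts, omitted replicates or libraries, and a replicate block were tried.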

Additional observations from a re-analysis of the deposited data

Results flagged for a closer look

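For 4 members the difference between nanoparticle and extract was past a log2 fold change of 1 for 1 berry and had the opposite sign for the other, with 1 library on each side, so the difference between berries was not tested. Abca5 was 0.12 in BLA-A against BLA and -1.43 in BLU-A against BLU. Its first value rests on 1 count against 0, and the second was fixed in direction because the gene passed the filter through BLU alone. For Abcb5 the values were -1.07 and 0.36, for Abcc12 -1.35 and 0.56, and for Abcc2 -1.23 and 0.75. All 4 genes had 50 counts or fewer in every library. Abcb5 passed the filter through BLU-A alone, so its sign in BLU-A against BLU was likewise fixed. Abcc2 passed only through BLA and BLU-A, the higher library of each comparison. The share of all genes that meet the same rule is not given here, so the number of members cannot be set against it.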

How the results depend on the processing

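Depth limits the members with few counts, and the number past the limit depended on how low values were treated. With at least 1 CPM required in every library, which tests fewer genes, the number fell from 8 to 2 for BLA, from 3 to 0 for BLU, from 16 to 4 for BLA-A, from 8 to 2 for BLU-A, from 13 to 6 for BLA-A against BLA and from 3 to 1 for BLU-A against BLU. Without a filter BLU had 5. A pseudocount of 0.1 gave 13 for BLA, 8 for BLU and 8 for BLU-A against BLU, and a pseudocount of 1 gave 4 for BLA, 3 for BLU-A, 6 for BLA-A against BLA and 1 for BLU-A against BLU. Leaving out a labelled replicate gave 7 to 8 for BLA, 2 to 3 for BLU, 15 to 16 for BLA-A, 7 to 9 for BLU-A, 12 to 14 for BLA-A against BLA and 3 for BLU-A against BLU. No called value changed sign under any alternative, but these alternatives could hardly turn a value past 1 in size. A pseudocount keeps the sign, and the labelled replicates are draws from 1 library. Scaling by total counts moved the median of all genes in BLA-A against untreated by -0.17.

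In the edgeR tests, leaving out a replicate or library gave 0 members called for treated against untreated and 0 to 8 for nanoparticles against extracts. The 8 came without BLU-A, with 24.3% of all genes called, which leaves BLA-A as the lone nanoparticle library, and the cause was not tested. Without a filter that comparison called 2 members, Abca2 and Abcg1. Taking the 15 columns as separate samples called 11 and 23 members, and 9 and 20 with a replicate block. These columns are draws from 5 libraries, so such counts measure sampling of reads. Same-numbered columns did not deviate together (mean correlation -0.0011 over 30 pairs), so the numbers pair nothing.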
